A study of Rattus norvegicus with 2 samples.

Results

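The spliceosomal U RNAs, 7SK, the Y RNAs and the RNA of the signal recognition particle were examined in the injured rat retina. Members were selected on their own values: a row of the FPKM table whose symbol names one of these RNAs (U followed by a number, with or without atac, 7SK, Y_RNA or Metazoa_SRP), and whose value is above 0 in CTRL or IR12. Of 32662 rows, 1972 carry such a symbol, and 256 of these have a value above 0 and are the members. FPKM is by definition the number of fragments scaled for transcript length and for the mapped reads of the library. Whether the deposited values were scaled between the libraries in this way was not tested. The paper reports more reads for IR12 than for CTRL. By the read numbers derived later, 1 read in CTRL was worth 1.71 times the FPKM of 1 read in IR12. Ratios of FPKM as deposited are thus not known to be ratios per mapped read. The rule takes each row by its gene identifier, since many copies share 1 symbol.

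The data are 2 libraries of ribosomal RNA depleted total RNA from the retina of Long-Evans rats aged 2 months, and the animals were female. CTRL is the retina after a sham procedure and IR12 is the retina 12 h after reperfusion that ended an ischemic injury. Each condition has 1 library and no replicate, so differences are given without a test and the variation between animals is unknown. The comparison asks how these short nuclear and cytoplasmic RNAs differ between the sham and the injured retina.

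Small nuclear RNAs act in complexes with proteins. U1 pairs with the start of an intron and U2 with its branch point, the U4, U5 and U6 particle then joins, and U6 forms the active site once U4 has left. U11, U12, U4atac and U6atac do this for a rare class of introns. 7SK holds the elongation kinase P-TEFb inactive, Y RNAs bind the Ro60 and La proteins, and the signal recognition particle guides nascent proteins to the endoplasmic reticulum.

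The label spliceosomal covers 125 members, 122 of U1, U2, U4, U5 or U6 and 3 of the minor spliceosome. The symbol rule also takes 3 members named U3 or U8, which guide the processing of ribosomal RNA in the nucleolus. U7, which acts in histone mRNA processing, is listed in 83 rows, U11 in 8 and U12 in 7, and all of these rows are listed at 0 in both libraries. Mepce, the capping enzyme of 7SK, is also listed at 0 in both. Whether a listed 0 stands for an absent RNA or for a failed estimate was not tested.

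Markers of the retina were present in both libraries. The 7 rod photoreceptor markers summed to 13956 FPKM in CTRL and 13039 in IR12, and Gnat1, the rod transducin, had the highest mean of both libraries at 4027 and 4237. Of these 7, 4 were lower in IR12 and 3 higher, with a median log2 ratio of -0.31 (0.34 on the TPM scale). Pdc was at least 2-fold lower, at 4269 and 1840 (-1.21, and -0.57 on the TPM scale). Sag was higher, at 2482 and 4703 (0.92). The 5 cone markers summed to 391 and 257, led by Gnat2, the 4 bipolar cell markers to 386 and 292, led by Trpm1, the 3 amacrine markers to 208 and 137, led by Gad1, and the 5 ganglion cell markers to 229 and 169, led by Nefl. On the TPM scale the IR12 sums of these 5 lists were instead above CTRL, at 20426, 403, 458, 215 and 265. Of the 5 Müller glia markers 4 were at least 2-fold lower in IR12, and the sum of all 5 was 1157 against 422, with Glul highest on the mean at 754 and 126. The other marker, Vim, was instead higher, at 121 and 221 (0.86, and 1.51 on the TPM scale).

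Markers of tissue next to the retina and of blood cells also differed between the libraries. All 6 lens markers were at least 2-fold lower in IR12, with a sum of 3371 against 399, and Cryba1 led them at 1614 and 196. Of the 6 leukocyte markers 5 were at least 2-fold higher, with a sum of 11.5 against 123. Lyz2 led them at 9.73 and 76.9, and S100a8 was listed at 0 in CTRL. The 5 pigment epithelium markers summed to 203 and 123, and Rlbp1, which the Müller glia list also holds, was highest on the mean. Without Rlbp1 the other 4 summed to 76.9 and 96.4, of which Ttr held 61.8 and 87.4. The direction of the sum thus depends on single genes, and of the 5 markers 3 were lower and 2 higher. Rpe65 was at least 2-fold lower, as was Rlbp1, at 11.1 and 4.88 (-1.04, and -0.48 on the TPM scale). The 2 blood markers found, of 4, summed to 20.8 and 35.3, led by Hbb, and the 5 microglia markers to 12.1 and 12.5, led by Aif1. The part of these markers in the results below was not tested. In such bulk samples fewer cells of a type and less RNA per cell cannot be told apart.

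The members together held 502568 FPKM in CTRL and 201683 in IR12 (log2 ratio -1.32). They made up 35.8% of the sum of the whole table in CTRL and 22.5% in IR12. Short RNAs weigh most in such sums, since 1 read is worth more FPKM on a shorter RNA. The Y RNA class alone held 337690 FPKM in CTRL and 123256 in IR12. In reads, derived below, the 134 members with read numbers held 123620 in CTRL and 124772 in IR12, so the ratio of the sum is not one of read numbers. All genes summed to 1402321 and 895199.9 FPKM, a difference of 507121, of which 300885 lies in the members. A scale with the same sum in both libraries (the TPM scale) therefore raises every gene of IR12 by 0.65 on the log2 scale, and on it the members' sum had a log2 ratio of -0.67. Ratios below are of FPKM as deposited, with the TPM scale given for each class and beside part of the other ratios. Where it is not given, a ratio between -0.65 and 0 can turn to above 0 on it.

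On the log2 scale of FPKM plus 1, 88 of the 256 members (34.4%) were at least 2-fold lower in IR12, against 4.36% of the 19100 genes with a value above 0 in either library. At least 2-fold higher were 26 members (10.2%), against 4.67% of those genes. The median log2 ratio was -0.69 over members and 0.02 over those genes. On the TPM scale 71 members were lower and 41 higher, against 2.48% and 16.3% of genes, and the medians were -0.12 and 0.41. These counts describe members that the rule chose on the same values, and 47 of the 88 and 24 of the 26 had a value in 1 library only. Such members had to differ, and nothing is read from them. Of the 145 members above 0 in both libraries, 41 were at least 2-fold lower and 2 at least 2-fold higher. The share over all genes above 0 in both was not counted, so these 2 counts are not set against other genes.

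**Figure D1:**
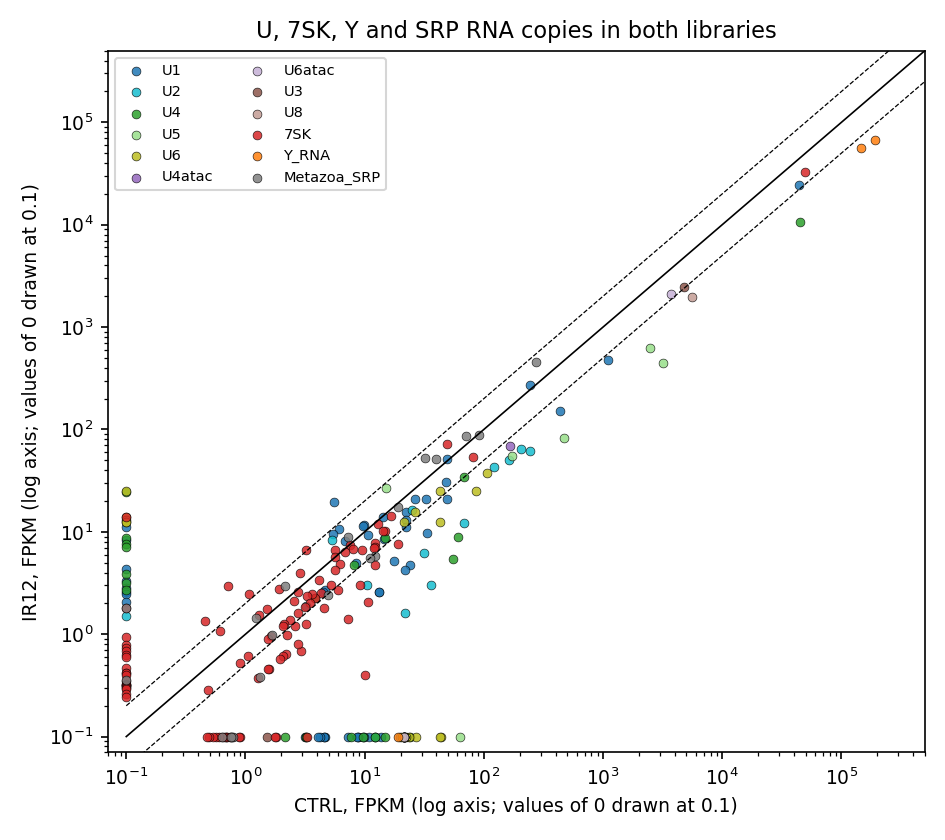
Each point is 1 of the 256 members, with its FPKM in CTRL on the horizontal and in IR12 on the vertical log axis, coloured by class; the solid line marks equal values and the dashed lines 2-fold differences. The most abundant copies lie below the solid line, with the main Y RNA, U4, U5 and U8 copies past the lower dashed line, and values of 0 are drawn at 0.1.

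The lowest values admitted by the rule were single reads. A 7SK copy of 357 bases entered with 0.245 FPKM in IR12 and 0 in CTRL, and the next, of 348 bases, with 0.260 in IR12. Just outside the rule stand the 1716 copies listed at 0 in both libraries. Of the members, 65 had a value in CTRL only and 46 in IR12 only.

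How many reads stand behind an FPKM could be read from the table for most members with a locus of their own. Among genes of the same locus length the lowest values repeat, and their change with length was described by the effective length of a normal fragment length distribution with a mean of 200 bases and an SD of 80. The shortest fragment, 35 bases, was chosen as the value that made them agree best. Of 55 lowest repeated values over both libraries, 49 fell on the curve of 1 read within 0.05 and the other 6 at 2 to 5 times it. By this curve 1 read in CTRL was worth 25.5 FPKM at 102 bases, 4.43 at 164 and 0.499 at 331, which is 51.2 times less than at 102. The value in CTRL was 1.71 times that in IR12 at each length, so this length dependence cancels in the ratio of the libraries but not between RNAs of different length.

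**Figure D2:**
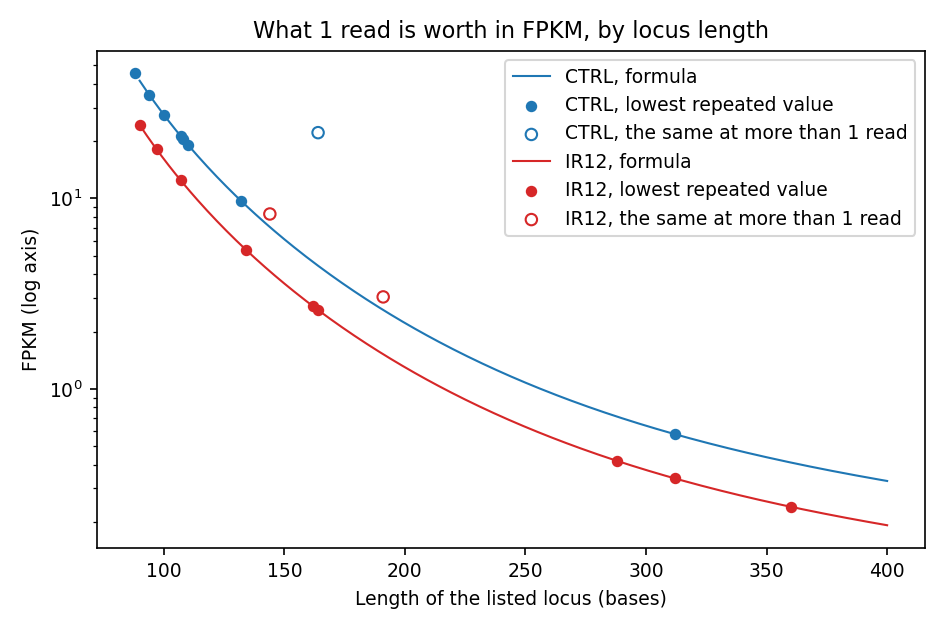
FPKM on a log axis against the length of the listed locus in bases, with points for the lowest repeated value among genes of 1 length and lines for 1 read by the effective length formula, in CTRL (blue) and IR12 (red). The 3 open points lie at more than 1 read. The lines drop steeply with length, from 25.5 FPKM at 102 bases to 0.499 at 331 in CTRL.

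Read numbers were obtained for 134 members, and 192 of their 197 values above 0 (97.5%) were within 0.05 of a whole number. The other 5 are values of the most deeply read copies, the Y RNA pair and the main 7SK copy. Over the 1396 genes of any kind with a locus of their own of 80 to under 1500 bases and under 200 reads, 80% of 2090 values were whole in this sense. Of the 134 members, 57 rested on 1 read over both libraries, 21 on 2 or 3, 29 on 4 to 19 and 27 on 20 or more. These members held 123620 reads in CTRL and 124772 in IR12, of which 80.6% and 88.8% belonged to the main 7SK copy.

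For the 27 copies with 20 or more reads, a 95% interval of the log2 ratio was computed from the reads (exact Clopper-Pearson). It covers counting error only and says nothing of the variation between animals. The interval lay below 0 for 17 copies, above 0 for 0 and held 0 for 10. On the TPM scale it lay below 0 for 12, above 0 for 2 and held 0 for 13.

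**Figure D3:**
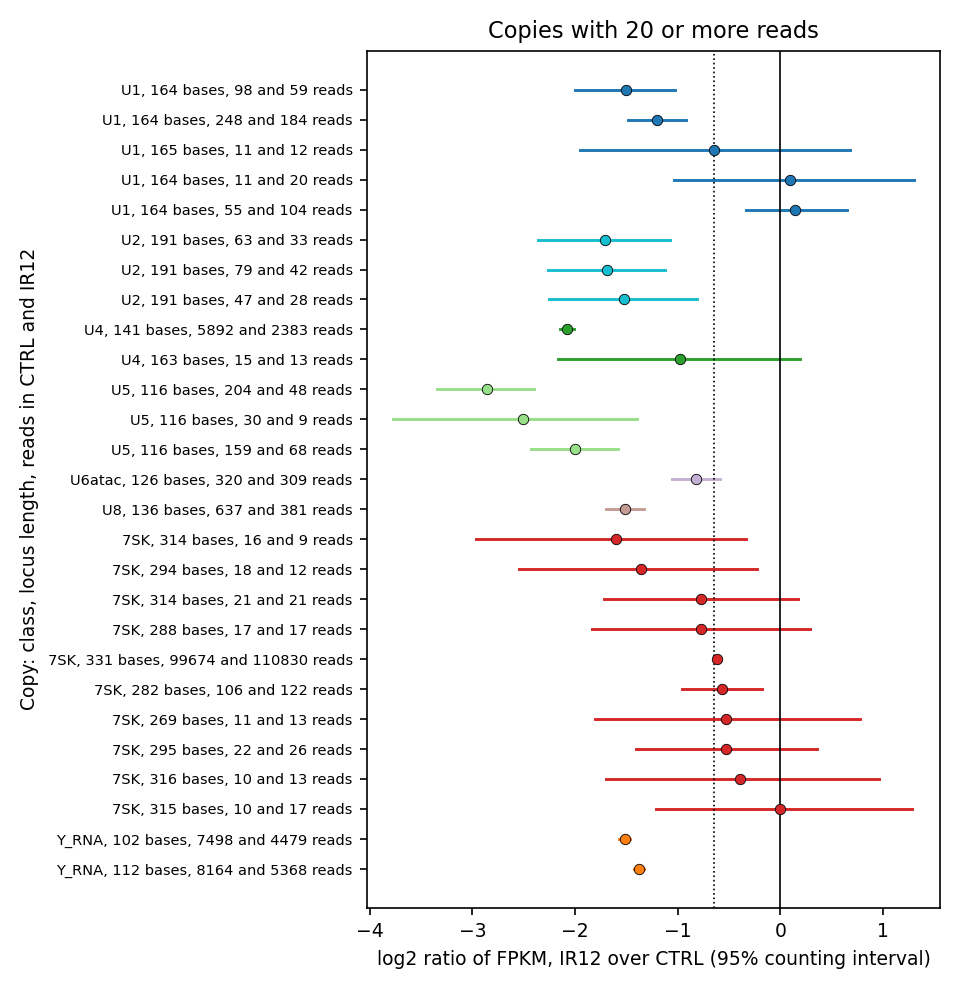
The log2 ratio of FPKM, IR12 over CTRL, for the 27 copies with 20 or more reads, with 95% counting intervals as lines and the class, locus length and reads of each copy at the left. The solid line marks equal FPKM and the dotted line equal values on the TPM scale; 2 U5 copies lie furthest to the left, at -2.86 and -2.51, and a U1 copy of 55 and 104 reads lies at 0.15.

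The major spliceosomal RNAs were lower in IR12 as a group. Over U1, U2, U4, U5 and U6, 122 of 1353 listed copies had a value, and they summed to 99877 FPKM in CTRL against 38363 after injury, or -1.38 on the log2 scale (-0.73 on the TPM scale). The classes differed in size of this decrease, and U1 had the smallest.

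U1, which recognises the 5′ splice site, had 53 members among 220 listed copies, and their summed FPKM was 46472 in CTRL against 25870 after injury, a log2 ratio of -0.85 (-0.20 on the TPM scale). A single copy (ENSRNOG00000055105) held 94.9% and 95.1% of the sum, at 44085 and 24606 FPKM. Its row gives a merged locus, chr10:74724549-74849194 of rn6, shared with LOC102555183 at 59.8 and 78.9 FPKM, so its own length is not stated there. If it is 164 bases long, as are 10 of the 23 U1 members with their own locus, the values are 9947 and 9482 reads. Both are whole within 0.05, but this does not settle the length. Among the most deeply read copies of known length, values were not all whole.

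Other U1 copies did not move together. These copies were chosen after their values were seen, as those with most reads. The copy at chr5:162797823-162797986 had 1099 FPKM in CTRL and 477 in IR12, or 248 and 184 reads, a log2 ratio of -1.20 (-1.49 to -0.92). At chr18:47273125-47273288 the values were 434 and 153, or 98 and 59 reads, a ratio of -1.50 (-2.00 to -1.02). The copy at chr3:7399482-7399645 instead had 244 and 270 FPKM, or 55 and 104 reads, a ratio of 0.15 (-0.34 to 0.65). Its interval does not overlap those of the first 2 copies, and all 3 are 164 bases long.

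The largest increase among members at or above FPKM 5 in each library was also a U1 copy (ENSRNOG00000054629), at 5.55 and 19.5 FPKM, a log2 ratio of 1.65. Its listed locus on chromosome 10 is shared with Cops3, a subunit of the COP9 signalosome, at 79.2 and 107. The U1 copy that shares a locus with Tbl1x had 6.11 and 10.7 FPKM (0.72), and the one with Opa3 had 5.42 and 9.53 (0.71). If these 3 copies are 164 bases long, they hold 1.22 to 1.38 reads in CTRL and 3.67 to 7.52 in IR12. These numbers are not whole, so 164 bases may not be their length. By the curve their CTRL values are those of 1 read at 154, 150 and 155 bases. At either length the rises rest on few reads. For copies like these, reads from the RNA of the other gene and from the U1 copy were not separated here.

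U2, which pairs with the branch point, had 15 members among 86 copies, and its sum was 971 FPKM in CTRL against 273 after injury, a log2 ratio of -1.83 (-1.18 on the TPM scale). No single copy dominated. The copy with the highest mean (ENSRNOG00000052561), which shares the listed locus of Ikzf3, had 246 and 61.9 FPKM and held 25.3% of the CTRL sum. The 3 U2 copies with 20 or more reads, on chromosomes 2, 8 and 9, had ratios from -1.71 to -1.52, and the 3 intervals overlap. The copy at chr2:198772287-198772477, for example, had 205 and 63.9 FPKM, or 79 and 42 reads. A copy in the listed locus of Tada3 (ENSRNOG00000052674) was among the largest decreases, at 67.5 and 12.2 (-2.38).

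U4, which keeps U6 inactive until the spliceosome is assembled, had 23 members among 115 copies. Its sum was 45338 FPKM in CTRL against 10785 after injury, a log2 ratio of -2.07 (-1.42 on the TPM scale). The copy ENSRNOG00000052742, at chr12:46863204-46863344, held 99.3% and 98.9% of the sum, at 45028 and 10663 FPKM. These are 5892 and 2383 reads, so the injured library held fewer U4 reads although 1 FPKM there takes 1.71 times as many reads, and the ratio of -2.08 had a counting interval of -2.15 to -2.01. Without this copy the class summed to 310 and 122 FPKM, a log2 ratio of -1.34 (-0.70 on the TPM scale). The other U4 copy with 20 or more reads, at chr7:114975512-114975674, had 67.9 and 34.5 FPKM, or 15 and 13 reads. Its ratio was -0.98, with an interval of -2.17 to 0.19 that holds 0. A U4 neighbour of the main copy, at chr12:46862390-46862530, had 61.1 and 8.95 FPKM, which are 8 and 2 reads (-2.77, interval -6.05 to -0.45). The U4 copy ENSRNOG00000052992 had the largest decrease among members at or above FPKM 5 in each library, at 55.2 and 5.39 on the FPKM scale, which are 6 reads and 1 read.

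U5, which aligns the exon ends, was lower by the largest factor of the classes on FPKM sums. Its 6 members, of 13 copies, summed to 6422 FPKM in CTRL against 1231 after injury, a log2 ratio of -2.38 (-1.74 on the TPM scale). Of these, 3 lie in 1 stretch, chr5:136057592-136071340. The copy ENSRNOG00000059280 had 3203 and 441 FPKM, or 204 and 48 reads, a ratio of -2.86 (-3.34 to -2.40). ENSRNOG00000059272 had 2497 and 625, or 159 and 68 reads, a ratio of -2.00 (-2.43 to -1.58). The copy between them had 173 and 55.2 FPKM, which are 11 and 6 reads.

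On chromosome 13 the U5 copy ENSRNOG00000057562 had 471 and 82.7 FPKM, or 30 and 9 reads, a ratio of -2.51 (-3.77 to -1.40). A U5 copy on chromosome 8 had 62.8 FPKM in CTRL, which is 4 reads, and is listed at 0 in IR12. ENSRNOG00000058970, in the listed locus of Hhat, instead had 15.2 and 26.7 FPKM (0.77), which at the 116 bases of the other 5 would be 0.968 and 2.91 reads. These are not both whole within 0.05, and by the curve 15.2 FPKM in CTRL is 1 read at 117 bases.

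U6, which forms the catalytic core, has the most copies and few reads. Of 919 listed copies 25 had a value, 14 in CTRL only, 5 in IR12 only and 6 in both, with a sum of 675 FPKM and 204 and a log2 ratio of -1.72 (-1.08 on the TPM scale). The top copy (ENSRNOG00000051944, on the X chromosome) had 106 and 37.4 FPKM, and these are 5 and 3 reads, so a difference was not detectable at this depth (-1.51, interval -4.20 to 0.85). All 11 U6 members with their own locus held 18 and 9 reads together, a ratio of -1.77 with a counting interval of -3.11 to -0.54, which lies below 0, and of -2.46 to 0.10 on the TPM scale, which holds 0. How reads that fit several copies were treated is not given in the sources used here.

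Ratios of class sums within 1 library do not depend on how the libraries are scaled. The FPKM of U4 over that of U1 was 0.976 in CTRL and 0.417 in IR12, and U5 over U1 was 0.138 and 0.0476. U2 over U1 was 0.0209 and 0.0105. U5 over U4 was closer between the libraries, at 0.142 and 0.114, as was U6 over U4 at 0.0149 and 0.0189. So U2, U4 and U5 were each lower relative to U1 in IR12, on any scaling.

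**Figure D4:**
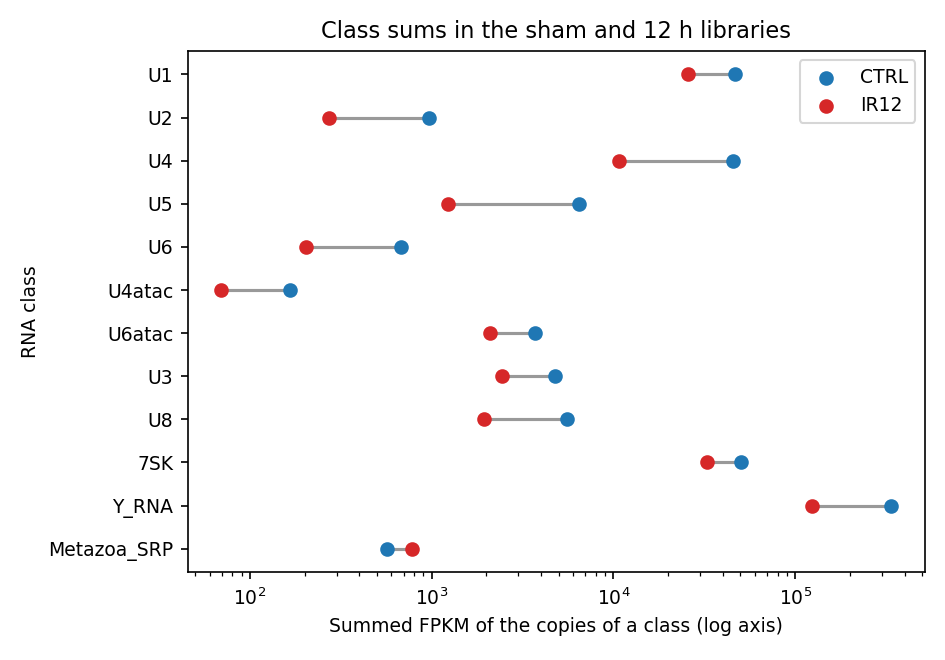
Summed FPKM of the copies of each class on a log axis, in CTRL (blue) and IR12 (red). The red point lies to the left of the blue one in 11 of 12 classes on FPKM as deposited (10 on the TPM scale, where 7SK turns to 0.03), with U5 furthest apart at 6422 and 1231, and the signal recognition particle RNA lies the other way at 569 and 780.

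In the minor spliceosome, U6atac and U4atac had values. The U6atac copy ENSRNOG00000055021, at chr3:6083910-6084035, had 3695 FPKM in CTRL and 2089 in IR12, or 320 and 309 reads, a log2 ratio of -0.82 (-1.05 to -0.59). With a class ratio of -0.18 on the TPM scale, it was among the RNAs that differed least. U4atac, whose 1 listed copy shares the locus of Clasp1, had 167 and 69.6 FPKM, a ratio of -1.25 (-0.61 for the class on the TPM scale), while Clasp1 had 58.3 and 50.6 (-0.20, and 0.44 on the TPM scale). U6atac had 5.51 times the summed FPKM of U6 in CTRL and 10.2 times in IR12, although U6 is known to be far more abundant than U6atac in cells.

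Of the nucleolar RNAs, U3 had 4782 FPKM in CTRL and 2435 in IR12 at its main copy (ENSRNOG00000061360), and the class had a log2 ratio of -0.97 (-0.33 on the TPM scale). The same listed locus, chr20:45357179-45357393, also carries a row named ACEA_U3 with 79.7 and 67.4 (-0.24, and 0.40 on the TPM scale). U8 (ENSRNOG00000056054, chr10:55656405-55656540) had 5554 and 1945 FPKM, or 637 and 381 reads, a ratio of -1.51 (-1.70 to -1.33), and -0.87 on the TPM scale.

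7SK had 106 members among 424 listed copies and the smallest decrease of the abundant classes. Its sum was 50211 FPKM in CTRL against 32746 after injury, a log2 ratio of -0.62 that turns to 0.03 on the TPM scale. The copy at chr8:85480292-85480622 (ENSRNOG00000058555) held 99.1% and 98.9% of the sum, at 49747 and 32388 FPKM. It had 99674 and 110830 reads, the most of any member, so more 7SK reads were counted in IR12, where each read is worth less FPKM. The counting interval of its ratio was -0.63 to -0.61.

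The other 105 7SK copies summed to 464 and 359 FPKM (-0.37, and 0.27 on the TPM scale), and the highest of them had 80.4 FPKM in CTRL. That copy, at chr18:4314467-4314748, had 106 and 122 reads and a ratio of -0.57 (-0.96 to -0.18), an interval that holds the value of the main copy, and of 0.08 on the TPM scale. Over the 10 7SK copies with 20 or more reads the ratio ran from -1.60 to -0.01, with a median of -0.59 and intervals that held 0 for 6. Their range became -0.95 to 0.64 on the TPM scale, where the median turns to 0.05. Of the 57 7SK members with read numbers, 27 rested on 1 read.

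Y RNAs had the highest FPKM of the table's members from only 3 of 28 listed copies. A pair within chr4:77459794-77463161 held nearly all of it. ENSRNOG00000056608 had 191448 FPKM in CTRL and 66961 in IR12, or 7498 and 4479 reads, a log2 ratio of -1.52 (-1.57 to -1.46). ENSRNOG00000060430 had 146223 and 56294, or 8164 and 5368 reads, a ratio of -1.38 (-1.43 to -1.33). Both were more than 2-fold lower on FPKM as deposited, and their intervals do not overlap. The remaining copy had 1 read in CTRL and is listed at 0 in IR12. As a class the ratio was -1.45 (-0.81 on the TPM scale).

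The order of Y RNA and 7SK depends on the unit. Y RNAs made up 24.1% of the summed FPKM of all genes in CTRL and 13.8% in IR12, and 7SK 3.58% and 3.66%. In reads the copies with their own locus gave 15663 and 9847 for Y RNA and 99966 and 111161 for 7SK. The FPKM of Y RNA over 7SK was 6.73 in CTRL and 3.76 in IR12, so Y RNA was lower relative to 7SK on any scaling.

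The signal recognition particle RNA was the only class with a higher sum in IR12 on FPKM as deposited, but 14 of its 19 copies share a listed locus. Of 33 listed copies these 19 had a value, with a sum of 569 FPKM in CTRL against 780 after injury, a log2 ratio of 0.45 (1.10 on the TPM scale) and a median over copies of -0.04 (0.55 on the TPM scale). The top copy (ENSRNOG00000061297), in the listed locus of Neto2, had 273 and 453 FPKM (0.73), while Neto2 had 12.1 and 10.4 (-0.20, and 0.40 on the TPM scale). For 9 of the 14 copies that share a locus, the overlapping gene is listed at 0 in both libraries. The 5 copies with their own locus held 5 reads in each library, and the counting interval of their ratio, -2.89 to 1.35 around -0.77, gives no direction.

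The size of the ratio differed between ranges of RNA length, but among the members length and class cannot be told apart. The ranges below held U5, Y RNA and U6atac copies, then U4 and U8, then U1, U2 and U4, and last 7SK. Among members with 20 or more reads the median log2 ratio was -1.76 for 6 copies from 100 to under 130 bases, -1.80 for 2 from 130 to under 160, -1.20 for 9 from 160 to under 200 and -0.59 for 10 from 200 to under 400, all of the last being 7SK (0.05 on the TPM scale). Of the small nucleolar RNAs with 20 or more reads, the 1 from 80 to under 100 bases had -1.02, and the medians were -1.33 for 3 in the first of these length ranges, -0.96 for 8 in the second and -0.63 for 3 in the last (0.02 on the TPM scale). U6atac, at 126 bases and -0.82, and U5, at 116 bases and from -2.86 to -2.00, show that copies of like length also differed. The RNA was purified on columns, and the part of RNA length in these differences was not tested.

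Other short RNAs were also lower in IR12. The 253 small nucleolar RNAs above 0 summed to 446138 FPKM in CTRL against 208909.6 after injury, a log2 ratio of -1.09 (-0.45 on the TPM scale), with 58.5% of them at least 2-fold lower and 13.4% at least 2-fold higher. These shares include 81 with a value in 1 library only, and of the 172 above 0 in both, 102 were lower and 0 higher. The 26 microRNA genes above 0 summed to 1579.7 and 461 FPKM. The 18555 genes left once small RNAs were taken out by symbol summed to 451575 and 484032, a log2 ratio of 0.10. Of them 3.09% were at least 2-fold lower and 4.45% higher. They are the genes other than small RNAs named below, though ACEA_U3 is still among them, and further small RNAs under other symbols were not looked for.

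Members that share a listed locus differed little from the rest in their median. The 121 of them had a median log2 ratio of -0.61, against -0.71 for the 135 with a locus of their own. Both medians include members with a value in 1 library only. The sums differed more, at 50974 and 28538 FPKM for shared loci and 451594 and 173145 for the others. In 102 cases the overlapping gene reached FPKM 1 in each library, and these genes had a median of -0.09 (0.53 on the TPM scale).

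Genes of the proteins that bind, make or trim these RNAs did not share the decrease on FPKM as deposited. In 12 lists 137 rows were found, of which 134 had a value above 0 in either library, and of these 0 were at least 2-fold lower and 2 at least 2-fold higher, against 4.36% and 4.67% of all genes with such a value. On the TPM scale the counts were 0 and 48, against 2.48% and 16.3%. The list medians over genes with such a value ran from 0.03 to 0.51, all 12 above 0, against 0.02 over all such genes. They ran from 0.66 to 1.14 on the TPM scale, against 0.41. Leaving out the 3 rows at 0 in both libraries was chosen after seeing the data. With them counted as ratios of 0, the medians of 3 lists were lower, as given below. Counts of genes higher or lower in single lists below are of any size. The share of all genes that were higher was not counted, so these counts are not set against it. Scaling on genes other than small RNAs shifts ratios by about -0.10, so a smaller rise can turn below 0.

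Among the core Sm and LSm proteins, which form the ring on each small nuclear RNA, 12 of the 15 rows with a value were higher and 3 lower, with a median of 0.45 (0.39 over 16 rows). Snrpd3 had the highest mean, at 59.6 and 88.2 FPKM (0.56), while Snrpn, chosen after its values were seen, had 91.5 and 56.1 (-0.70, and -0.06 on the TPM scale). Snrpg had 12.6 and 26.0 (0.99) and Lsm4 27.4 and 45.9 (0.72). A further Snrpg row is listed at 0 in both. Of the 15 genes of U1 and U2 proteins 13 were higher, with a median of 0.31. Snrpa1, a U2 protein, had 22.2 and 51.0 (1.16), Snrpa, a U1 protein, 6.20 and 11.2 (0.77), and Snrnp70, highest on the mean, 230 and 216 (-0.10, and 0.55 on the TPM scale).

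The proteins of the U4, U5 and U6 particle gave the highest list median, 0.51, and all 15 genes found were higher in IR12 while U4 and U5 RNA were lower. Prpf8, the scaffold at the centre of the spliceosome, had 126 and 153 FPKM (0.28), Prpf31, a U4 protein, 32.2 and 56.9 (0.81), and Txnl4a 17.7 and 29.0 (0.69). The 8 minor spliceosome proteins had a median of 0.03, which turns to -0.06 when the libraries are scaled on genes other than small RNAs. Snrnp48 led them at 55.8 and 46.3 (-0.26, and 0.37 on the TPM scale), Zmat5 had 6.09 and 8.70 (0.45) and Snrnp25 10.6 and 14.7 (0.44).

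The 7SK and P-TEFb list had a median of 0.10 over the 6 genes with a value, at 0.07 after centring on the median gene. With Mepce counted as 0 it was 0.02, and -0.00 when centred. Larp7, which binds the 3′ end of 7SK, had 21.5 and 28.5 FPKM (0.39), and Hexim1 and Hexim2, the inhibitors that 7SK recruits, had 11.3 and 10.6 (-0.08) and 3.63 and 3.71 (0.02). The kinase Cdk9 had 18.4 and 20.9 (0.18), and its cyclins Ccnt1 and Ccnt2 had 8.38 and 11.1 (0.36) and 35.3 and 34.5 (-0.03). On the TPM scale the 6 genes with a value above 0 were all higher, Hexim1 by 0.52 and Ccnt2 by 0.60.

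Of the proteins that bind Y RNAs, Trove2, which encodes Ro60, had 142 FPKM in CTRL against 86.6 after injury, a log2 ratio of -0.70 that is -0.06 on the TPM scale. Ssb, which encodes La, had 185 and 230 (0.31), and Puf60 had 53.8 and 83.1 (0.62). Trove2 was thus the only one of the 3 that was lower along with the Y RNAs.

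Factors that transcribe or mature small nuclear RNAs had a median of 0.26 over 21 genes with a value (0.22 over 22 rows). Snapc5, a subunit of the complex that binds their promoters, had 35.8 and 103 FPKM and the largest ratio of any gene in these lists, 1.51. Cpsf3l, the endonuclease of the Integrator complex, had 17.5 and 24.7 (0.48), and Ints8 75.3 and 75.0 (0.00, and 0.64 on the TPM scale), while Ints1 is listed at 0 in both. RNA polymerase III, which makes U6, 7SK and Y RNA, had 15 of 16 genes higher and a median of 0.25. Of these genes 0 were at least 2-fold higher, and Brf2 rose by only 0.0003 and Brf1 by 0.05. The median was 0.15 when the libraries were scaled on genes other than small RNAs. Bdp1 was highest on the mean at 49.6 and 50.3 (0.02), Polr3g had 2.88 and 4.75 (0.57) and Polr3d 24.6 and 33.6 (0.44).

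The SMN complex, which loads the Sm ring, and factors of the RNA cap and export had all 14 genes higher, with a median of 0.30. Of these 0 were at least 2-fold higher, and the smallest rise was that of Smn1, at 27.3 and 27.9 FPKM (0.03). Strap had 30.4 and 52.0 FPKM (0.76) and Gemin7 1.10 and 2.94 (0.91). The 9 genes of U6 end processing and RNA surveillance had a median of 0.13, with Papd5 at 71.4 and 60.6 (-0.23, and 0.41 on the TPM scale), Exosc10 at 30.7 and 44.8 (0.53) and Toe1 at 6.79 and 9.14 (0.38). The 5 U7 and histone mRNA processing genes had a median of 0.33, with Casp8ap2 at 21.9 and 27.8 (0.33), Lsm10 at 8.14 and 12.1 (0.52) and Zfp473 at 2.07 and 3.13 (0.43). The 7 signal recognition particle genes found had a median of 0.20, with Srp14 at 125 and 122 (-0.03, and 0.61 on the TPM scale), Srpr at 28.3 and 41.6 (0.54) and Srp72 at 13.8 and 18.8 (0.42).

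**Figure D5:**
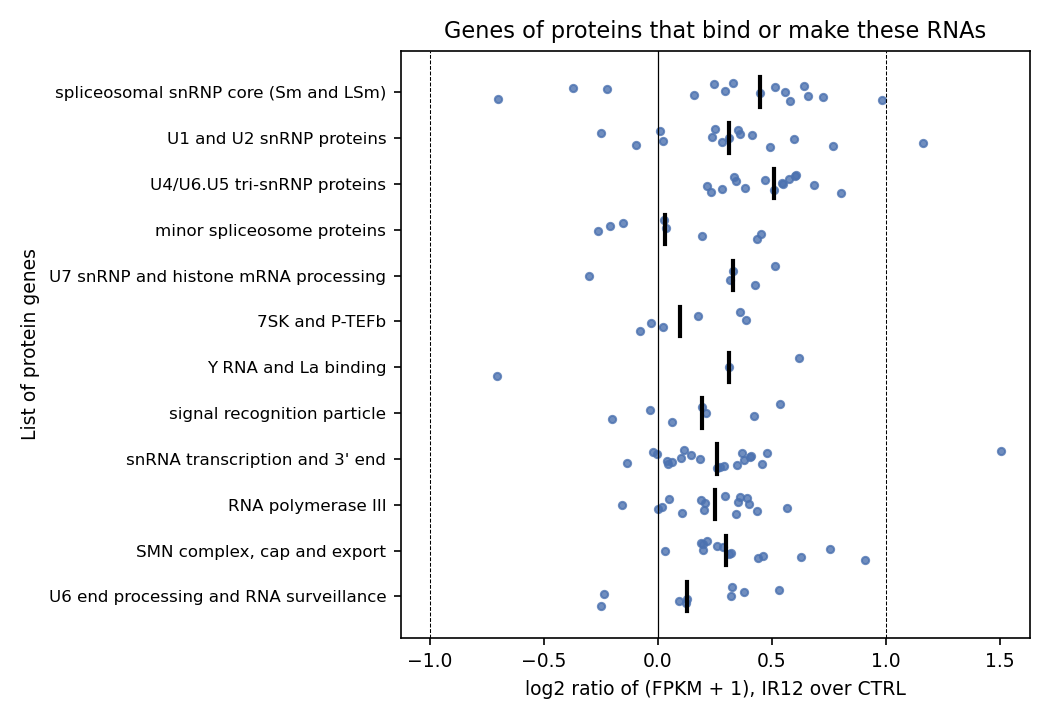
The log2 ratio of FPKM plus 1, IR12 over CTRL, for each gene (points) of 12 lists of proteins that bind, make or trim these RNAs, with list medians as black bars and 2-fold differences as dashed lines. Rows at 0 in both libraries are not drawn. All 12 medians lie at or above 0.03 on FPKM as deposited (1 falls to -0.06 when the libraries are scaled on genes other than small RNAs), and only Snrpa1 and Snapc5 lie past a dashed line.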

How the data were processed

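The authors deposited FPKM per gene for 2 libraries of rRNA-depleted, stranded total RNA. The submitters' processing notes name STAR 2.5.2b, Cuffdiff 2.2.0 and the rn6 build. Starts are listed from 0 and are printed 1 higher. Ratios are log2 of FPKM plus 1, IR12 over CTRL, and a member was counted as different at 2-fold. Class ratios are of summed FPKM with no pseudocount, as are ratios with counting intervals. Read numbers were derived for members whose listed locus overlaps no other and is between 80 and 1500 bases, with Python 3.11.15 (pandas 2.3.3, numpy 2.4.6, scipy 1.17.1). The step was tested on data simulated with the same length formula. That test checks the calculation and cannot show how well the formula fits the deposited values. Overlapping rows share a merged locus. Of the rod list 1 marker is not reported here.

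Named are the copy with the highest mean FPKM in each class and the 10 members highest in mean FPKM. Also named are the 5 largest rises and falls among members at or above FPKM 5 in each library. All genes of the 7SK and Y RNA protein lists are named. For each other protein list the gene highest in mean FPKM is named. The 2 with the largest absolute ratio among its genes at or above FPKM 1 in each library are added. For each marker list the gene highest in mean FPKM is named. Further copies, markers and list genes were chosen after their values were seen. Members and lists were chosen with earlier results of these data known. Alternatives changed the pseudocount, the scaling, the filter on low values and the members included.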

Additional observations from a re-analysis of the deposited data

How the results depend on the processing

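The 2 libraries have no replicate, so no setting can show the variation between animals, and most copies rest on few reads. The count of members at least 2-fold lower (88) became 41 among members above 0 in both libraries and 50 without shared loci. With at least 20 reads, an alternative chosen after seeing the data, it became 14, and it stayed between 71 and 119 under the other settings. The count at least 2-fold higher (26) became 51 with a pseudocount of 0.1, 41 on the TPM scale, 2 above 0 in both libraries, 13 with FPKM of at least 5 in either, 17 without shared loci and 0 with at least 20 reads. The smaller sets hold fewer members by construction.

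The log2 ratio of the members' sum (-1.32) was -0.67 on the TPM scale, -1.42 scaled on genes other than small RNAs, -1.34 centred, -1.21 without the top member and -1.38 without shared loci. Without both abundant Y RNA copies, also chosen after seeing the data, it was -1.07. The median (-0.69) was -0.77 with a pseudocount of 0.1, -0.12 on the TPM scale, -0.73 scaled on other genes, -0.71 centred, -0.62 above 0 in both, -1.08 with FPKM of at least 5 in either, -0.68 without the top member, -0.71 without shared loci, -0.67 without nucleolar RNAs and -1.20 with at least 20 reads. No sign changed among these.

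Of 12 classes 11 had a sum below that of CTRL as deposited and 10 on the TPM scale. U11, U12 and U7 gave no value under any setting.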
